A study of Mus musculus with 16 samples.

Results

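The nuclear-encoded genes of respiratory chain complexes I to IV were followed in mouse retina after light damage, as 55 genes of the 10916 that could be tested. They were chosen by symbol alone. Complex I took names starting Nduf, then the letter a, b, c, s or v, then a number. Complex II took Sdha to Sdhd, and complex III took names starting Uqcr. Complex IV took names starting Cox, then a subunit number, then the letter a, b or c. Subunits whose names have another form were not included, so the list is not every nuclear subunit. The complex given to a gene follows from its name only, including that of Ndufa4, and was not checked against the protein. Each gene was read by its brightest probe set that carried a single symbol. The array held 62 such genes, and 55 of them passed a filter on dim probe sets (above log2 4 on at least 2 arrays): 32 of 35 for complex I, 4 of 4 for complex II, 8 of 8 for complex III and 11 of 15 for complex IV.

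The retinas came from BALB/c mice of both sexes, 11 to 16 weeks old. Nxnl1-/- mice lacked Nxnl1, which encodes a thioredoxin-like protein of photoreceptors, and the wild-type mice had the gene; both were of the same albino strain. All mice spent 16 h in the dark, then 1 h under white fluorescent lamps, then 24 h in the dark before the retina was taken without its pigment epithelium. The groups were Nxnl1-/- at 50 lux (3 arrays), 2500 lux (3) and 5000 lux (2), and wild type at 50 lux (2), 2500 lux (3) and 5000 lux (3). Light at 50 lux, the dim setting, served as the baseline, so no group was left unexposed. How Nxnl1 was inactivated and whether animals were pooled is not given by the labels, and p-values measure only the spread between these arrays. Nxnl1 lay between 2.21 and 2.92 on the log2 scale on the Nxnl1-/- arrays and between 5.64 and 7.61 on the wild-type arrays, without overlap.

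The respiratory chain sits in the inner mitochondrial membrane. Complex I takes electrons from NADH and complex II takes them from succinate. Both pass them to ubiquinone, complex III passes them on to cytochrome c, and complex IV hands them to oxygen. Complexes I, III and IV pump protons, and ATP synthase uses the resulting gradient. Photoreceptors hold a dense cluster of mitochondria in the inner segment and are among the most oxygen-consuming cells known. A few catalytic subunits are encoded in mitochondrial DNA, and all genes followed here are nuclear.

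In both genotypes most chain genes differed little between bright and dim light. Of the 55 genes, 4 fell in Nxnl1-/- retinas at 2500 lux, 0 passed in Nxnl1-/- retinas at 5000 lux, none passed in wild-type retinas at 2500 lux, and wild-type retinas at 5000 lux had 1 lower gene (limma, Benjamini-Hochberg adjusted p under 0.05). None rose in this fit. Of all 10916 genes, 13.5%, 7.81%, 5.13% and 5.27% fell in these comparisons, in the same order, and 8.87%, 4.60%, 8.93% and 7.56% rose. Cox7a2l, counted by its name in complex IV, fell in both genotypes, and Cox6b2, Uqcr11 and Ndufa10 fell in Nxnl1-/- retinas at 2500 lux. No chain gene passed between the genotypes at any dose.

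The 4 genes that fell are shown by the promoter window of each, because a promoter is where factors known to act on respiratory genes (NRF1 and the ETS factor GABP) bind. Each window is 300 bases from RefSeq on GRCm38.p6, given 5′ to 3′ on the gene's strand, from 250 bases before the transcription start to 50 after it. All 4 lie on the minus strand. The start used for Ndufa10 lies 67 bases inside the gene's annotated span, and the others lie at the end of theirs. Capitals mark a match to the ETS core CCGGAAG or to an NRF1 pattern (GCGCA, then any base, then GCGC), each searched on both strands. The windows are chr17:83514284-83514583 for Cox7a2l, chr7:4753045-4753344 for Cox6b2, chr10:80406772-80407071 for Uqcr11 and chr1:92473709-92474008 for Ndufa10.
Cox7a2l: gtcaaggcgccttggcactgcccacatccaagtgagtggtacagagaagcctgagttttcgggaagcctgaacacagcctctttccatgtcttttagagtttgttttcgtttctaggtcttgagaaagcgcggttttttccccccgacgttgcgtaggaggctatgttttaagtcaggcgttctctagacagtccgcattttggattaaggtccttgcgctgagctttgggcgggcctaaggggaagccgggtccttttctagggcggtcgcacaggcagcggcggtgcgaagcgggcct
Cox6b2: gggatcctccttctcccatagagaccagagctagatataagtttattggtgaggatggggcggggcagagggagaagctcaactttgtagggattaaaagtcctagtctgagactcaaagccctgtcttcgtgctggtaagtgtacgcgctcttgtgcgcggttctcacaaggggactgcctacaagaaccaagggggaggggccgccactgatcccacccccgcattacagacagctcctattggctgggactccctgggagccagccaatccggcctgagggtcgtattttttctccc
Uqcr11: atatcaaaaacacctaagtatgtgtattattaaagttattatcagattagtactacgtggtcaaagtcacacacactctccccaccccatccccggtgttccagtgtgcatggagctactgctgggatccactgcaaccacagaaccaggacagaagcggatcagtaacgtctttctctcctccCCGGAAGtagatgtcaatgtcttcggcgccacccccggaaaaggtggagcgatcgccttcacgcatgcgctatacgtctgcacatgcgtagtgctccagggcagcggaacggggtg
Ndufa10: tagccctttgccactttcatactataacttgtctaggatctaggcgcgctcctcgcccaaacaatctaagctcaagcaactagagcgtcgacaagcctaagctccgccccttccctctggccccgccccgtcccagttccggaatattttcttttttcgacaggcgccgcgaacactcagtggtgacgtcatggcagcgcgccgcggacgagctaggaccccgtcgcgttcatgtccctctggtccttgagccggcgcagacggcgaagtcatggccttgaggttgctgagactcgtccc

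Of these 4 windows, the one of Uqcr11 held an ETS core match, on the gene's own strand from 66 to 60 bases before the start, and neither pattern was found in the windows of Cox7a2l, Cox6b2 and Ndufa10. RefSeq windows were matched for 47 of the 55 genes, and those of Ndufa2, Ndufb9, Ndufs1, Sdhc, Uqcrb, Uqcrc2, Uqcrq and Cox6c were not used here. An NRF1 match stood in the windows of 8 of the 47 genes (17.0%), among them Sdha, Uqcrc1 and Cox6a1, against 1402 of 27025 genes with a window (5.2%). An ETS core match stood in 11 of the 47 (23.4%), among them Sdhb, Uqcrh and Cox8a, against 2683 of 27025 (9.9%). At least 1 of the patterns stood in the windows of 17 of the 47 genes (36.2%), against 14.0% of all genes with a window, and Sdhd and Cox6a1 held both. A gene counted when any of its windows matched, and there were 32851 windows for the 27025 genes. Those genes were not limited to the ones tested on the arrays. A match describes letters in a window, and base composition was not matched between the sets.

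Each probe set has its own response, so a level below is comparable between arrays and not between genes. Mean log2 intensity over the 16 arrays ran from 9.40 for Ndufs4, a subunit needed for complex I assembly, to 12.23 for Ndufc2, an accessory subunit, among the complex I genes that passed the filter. In complex II it ran from 8.78 for Sdhd, a membrane anchor, to 10.78 for Sdha, the flavoprotein that oxidises succinate. In complex III it ran from 9.02 for Uqcr10 to 12.92 for Uqcrb. In complex IV it ran from 4.38 for Cox8b to 13.61 for Cox6a1. The median over the 55 genes was 11.11, against 7.94 over all 10916 genes, and all but Cox8b, which was above log2 4 on 13 arrays, were above it on all 16.

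The isoforms known from striated muscle, testis or low oxygen were mostly dim. Cox6a2 and Cox7a1, the muscle partners of Cox6a1 and Cox7a2, had means of 2.21 and 2.24, and Cox7b2 and Cox8c, known from testis, both had 2.21, the floor of the deposited values. Ndufa4l2, known as a hypoxia-induced relative of Ndufa4, also had a mean of 2.21. Ndufb1 (2.58) and Ndufb4 (3.39), which are not tissue isoforms, likewise missed the filter on the probe sets used, so 7 genes were not tested. Their partners Cox6a1, Cox7a2 and Ndufa4 had mean levels of 13.61, 12.10 and 11.78.

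Respiratory chain genes varied little from array to array. The range over all 16 arrays was under 1 on the log2 scale for 51 of the 55 genes, with a median range of 0.57 and extremes of 0.19 and 2.45. The widest ranges were those of Cox8b (2.45), Cox6b2 (1.77), Cox7c (1.55) and Uqcr11 (1.11). The 4 genes with the widest ranges include 3 of the dimmest probe sets that passed. The median standard deviation within groups was 0.14, against 0.17 over all genes. Chain genes were brighter (median level 11.11 against 7.94), and the comparison was not matched for level. The share of all genes with a range under 1 is not given here.

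One array stood apart from its group. Nxnl1-/- replicate 1 at 50 lux held the highest value of the 16 arrays for 27 of the 55 genes, and its median deviation from the genes' means was 0.23 (0.14 over all genes). The other arrays of that group, replicates 2 and 3, had median deviations of 0.01 and -0.03. Nxnl1-/- replicate 2 at 2500 lux and wild-type replicate 2 at 2500 lux each held the lowest value for 13 genes. Lens genes, 12 crystallins and lens fibre genes, averaged 8.82, 7.04 and 6.30 on the 3 Nxnl1-/- arrays at 50 lux, against 4.14 and 3.26 on the wild-type arrays at 50 lux. They averaged 8.11 on Nxnl1-/- replicate 2 at 2500 lux, against 4.29 and 4.35 on replicates 1 and 3. On Nxnl1-/- replicate 2 at 5000 lux they averaged 8.09, against 3.74 on replicate 1. They reached 12.42 on wild-type replicate 2 at 5000 lux, whose median deviation for chain genes was -0.03. The other wild-type arrays at 2500 and 5000 lux had lens means from 3.25 to 4.03. The part of these arrays in the results was not tested beyond leaving each out.

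**Figure D1:**
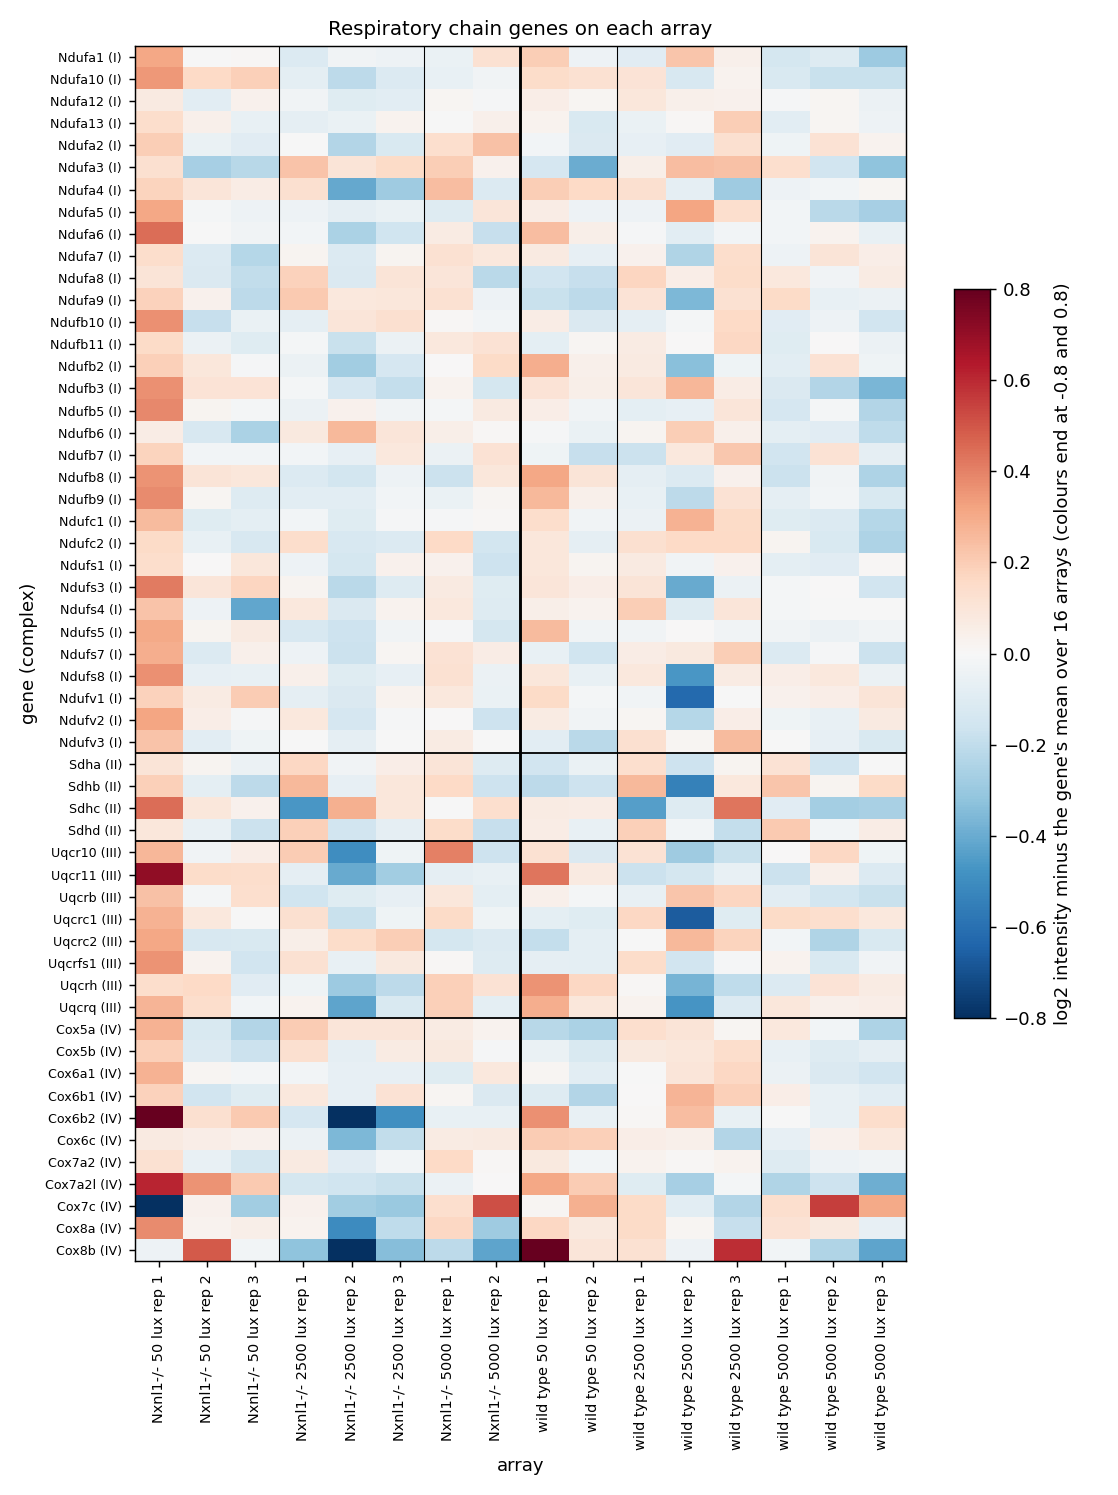
Heat map of log2 intensity minus the gene's mean over 16 arrays, for 55 chain genes (rows, by complex) on each array (columns, Nxnl1-/- left of wild type, doses from 50 to 5000 lux). Most cells are pale, the column of Nxnl1-/- replicate 1 at 50 lux is mostly red, and the strongest colours lie in Cox8b, Cox6b2 and Cox7c.

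By complex, the per-array medians stayed near 0 in all 6 groups. For complex I the mean of the array medians was 0.06 ± 0.14 at 50 lux, -0.05 ± 0.05 at 2500 lux and 0.02 ± 0.03 at 5000 lux in Nxnl1-/- retinas (SD over 3, 3 and 2 arrays). In wild-type retinas it was 0.02 ± 0.07, 0.04 ± 0.06 and -0.04 ± 0.02 over the same doses (SD over 2, 3 and 3 arrays). The complex I array medians of Nxnl1-/- retinas at 50 lux ran from -0.03 to 0.23 and so spanned those at 5000 lux.

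Complex IV had array medians averaging 0.07 ± 0.11, -0.10 ± 0.11 and 0.03 ± 0.05 at 50, 2500 and 5000 lux in Nxnl1-/- retinas, and 0.03 ± 0.07, 0.04 ± 0.02 and -0.05 ± 0.03 in wild-type retinas. Complex III averaged 0.11 ± 0.15, -0.08 ± 0.14 and 0.02 ± 0.14 in Nxnl1-/- retinas, and 0.02 ± 0.09, -0.09 ± 0.12 and -0.00 ± 0.04 in wild-type retinas. Complex II, which shares succinate oxidation with the citric acid cycle, averaged 0.01 ± 0.13, 0.07 ± 0.11 and -0.00 ± 0.19 in Nxnl1-/- retinas, and -0.05 ± 0.01, 0.03 ± 0.15 and 0.03 ± 0.13 in wild-type retinas. Most differences between doses were of the size of the SD between arrays. Groups did not overlap for complex I in Nxnl1-/- retinas (-0.00 to 0.04 at 5000 lux, against -0.11 to -0.02 at 2500 lux), for complex I in wild-type retinas (-0.06 to -0.03 at 5000 lux, against -0.02 to 0.10 at 2500 lux) and for complex IV in wild-type retinas (-0.07 to -0.02 at 5000 lux, against 0.02 to 0.05 at 2500 lux).

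In Nxnl1-/- retinas at 2500 against 50 lux, the median log2 change was -0.13 for complex I, 0.04 for complex II, -0.21 for complex III and -0.14 for complex IV. The median over all 55 genes was -0.14, against -0.08 over all 10916 genes. Without Nxnl1-/- replicate 1 at 50 lux the median of the 55 genes was -0.04. In Nxnl1-/- retinas at 5000 lux the complex medians were -0.03, 0.00, -0.09 and -0.03, and the 55 genes had -0.04 against -0.09 over all genes.

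In wild-type retinas the medians of complexes I to IV were 0.03, 0.05, -0.12 and -0.09 at 2500 against 50 lux, and -0.08, 0.09, -0.06 and -0.08 at 5000 against 50 lux. The 55 genes together had medians of -0.01 and -0.07, against 0.04 and 0.00 over all genes. The complex median farthest from 0 in the 4 light comparisons was that of complex III in Nxnl1-/- retinas at 2500 lux, -0.21.

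**Figure D2:**
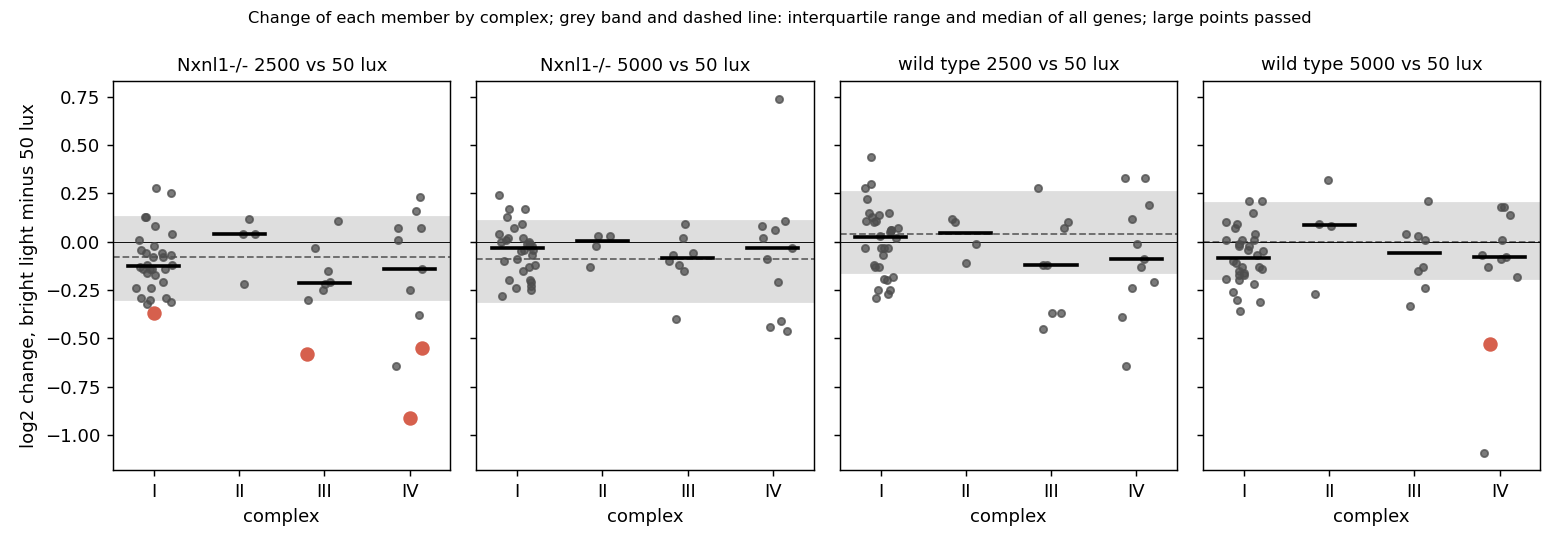
Log2 change of every chain gene by complex in each light comparison (points), with the median of the complex (black bars) and the median and interquartile range of all genes (dashed line and grey band). The 5 large points, all below 0, passed the test: 4 in Nxnl1-/- retinas at 2500 lux and 1 in wild-type retinas at 5000 lux.

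The counts can be read against the share of all 10916 genes called in each comparison. In Nxnl1-/- retinas at 2500 lux, 4 of 55 chain genes fell and 0 rose, where 13.5% of all genes fell and 8.87% rose. At 5000 lux in Nxnl1-/- retinas 0 passed, where 7.81% of all genes fell and 4.60% rose. At 2500 lux in wild-type retinas 0 passed, where 5.13% fell and 8.93% rose. At 5000 lux in wild-type retinas 1 fell and 0 rose, where 5.27% fell and 7.56% rose. At an unadjusted p under 0.05, chain genes numbered 12, 4, 9 and 5 in these comparisons, in the same order (limma). That is 21.8%, 7.3%, 16.4% and 9.1% of the chain genes, against 35.7%, 30.2%, 28.4% and 26.2% of all genes.

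The intervals show how small the changes were at this precision. The 95% interval of the change lay within a 2-fold rise or fall for 53 of 55 chain genes at 2500 lux and 53 at 5000 lux in Nxnl1-/- retinas, and for 54 at each dose in wild-type retinas. Among all genes the share was 84.0% and 82.8% in Nxnl1-/- retinas, and 83.8% and 84.2% in wild-type retinas. Within a 1.5-fold change lay the intervals of 44 and 48 chain genes in Nxnl1-/- retinas and of 42 and 46 in wild-type retinas (80.0%, 87.3%, 76.4% and 83.6%), against 53.5%, 50.3%, 50.3% and 52.6% of all genes. The chain genes also had a slightly smaller spread within groups than all genes, which narrows such intervals, and the sets were not matched for level.

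Cox7a2l (chr17:83501917-83514333, GRCm38.p6) was the gene with the smallest p in Nxnl1-/- retinas at both doses and in wild-type retinas at 5000 lux. Its log2 intensity in Nxnl1-/- retinas was 10.56, 10.31 and 10.16 at 50 lux, 9.81, 9.79 and 9.77 at 2500 lux, and 9.90 and 9.95 at 5000 lux. In wild-type retinas it was 10.26 and 10.15 at 50 lux, 9.85, 9.68 and 9.93 at 2500 lux, and 9.71, 9.78 and 9.56 at 5000 lux. Every array at 2500 or 5000 lux lay below every array at 50 lux in both genotypes.

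The log2 change of Cox7a2l was -0.55 (SE 0.11, adjusted p = 0.00404 by limma) in Nxnl1-/- retinas at 2500 lux, a 1.46-fold fall. It was -0.53 (SE 0.13, adjusted p = 0.0163) in wild-type retinas at 5000 lux, a 1.44-fold fall. The differences in Nxnl1-/- retinas at 5000 lux (-0.41, SE 0.13, adjusted p = 0.0502) and in wild-type retinas at 2500 lux (-0.39, SE 0.13, adjusted p = 0.0656) did not pass. The call at 5000 lux in wild-type retinas was lost without wild-type replicate 1 at 50 lux (adjusted p = 0.157), without replicate 2 at 50 lux (0.0637) and without wild-type replicate 3 at 5000 lux (0.0694). It was also lost when only the arrays of the compared groups were fitted. The change was not shown to differ between genotypes, with an interaction of -0.16 (95% interval -0.53 to 0.20) at 2500 lux and 0.11 (-0.27 to 0.50) at 5000 lux.

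Both further probe sets of Cox7a2l were lower after bright light too. The brighter of them had changes of -0.63 (adjusted p = 0.00137) at 2500 lux and -0.40 (0.0567) at 5000 lux in Nxnl1-/- retinas, and -0.54 (0.0123) and -0.41 (0.0511) in wild-type retinas. The dimmer had -0.48 (0.0140) and -0.40 (0.0724) in Nxnl1-/- retinas, and -0.39 (0.0878) and -0.43 (0.0620) in wild-type retinas. All 8 of these changes were negative, and the 3 that passed were at 2500 lux.

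Cox6b2 (chr7:4751792-4753094), a complex IV isoform best known from testis, had the largest fall of the genes that passed. Its log2 intensity in Nxnl1-/- retinas was 7.11, 6.43 and 6.51 at 50 lux, 6.17, 5.34 and 5.81 at 2500 lux, and 6.24 and 6.24 at 5000 lux. In wild-type retinas it was 6.67 and 6.24 at 50 lux, 6.31, 6.55 and 6.24 at 2500 lux, and 6.30, 6.24 and 6.44 at 5000 lux. The Nxnl1-/- arrays at 2500 lux lay below all other arrays, and the wild-type doses overlapped.

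The change of Cox6b2 in Nxnl1-/- retinas at 2500 lux was -0.91 (SE 0.21, adjusted p = 0.00878 by limma), a 1.88-fold fall. At 5000 lux it was -0.44 (SE 0.24, adjusted p = 0.228). In wild-type retinas it was -0.09 (95% interval -0.60 to 0.42) at 2500 lux and -0.13 (-0.64 to 0.38) at 5000 lux. The interaction of genotype with light at 2500 lux was -0.82 (SE 0.32) and did not pass (adjusted p = 0.485), so the change was not shown to differ between genotypes. Its partner Cox6b1, the general isoform, had changes of 0.07 (95% interval -0.18 to 0.31) in Nxnl1-/- retinas and 0.33 (0.05 to 0.60, adjusted p = 0.122) in wild-type retinas at 2500 lux.

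Uqcr11 (chr10:80402997-80406821), a small accessory subunit of complex III, had log2 intensities in Nxnl1-/- retinas of 10.12, 9.56 and 9.55 at 50 lux, 9.34, 9.01 and 9.13 at 2500 lux, and 9.34 and 9.35 at 5000 lux. In wild-type retinas it had 9.84 and 9.48 at 50 lux, 9.24, 9.27 and 9.35 at 2500 lux, and 9.24, 9.45 and 9.30 at 5000 lux. No bright-light array reached the level of a 50 lux array of the same genotype. The change was -0.58 (SE 0.15, adjusted p = 0.0171 by limma) in Nxnl1-/- retinas at 2500 lux and -0.40 (SE 0.17, adjusted p = 0.139) at 5000 lux. The wild-type change was -0.37 (SE 0.17, adjusted p = 0.193) at 2500 lux and -0.33 (95% interval -0.70 to 0.04) at 5000 lux. The call in Nxnl1-/- retinas was lost without Nxnl1-/- replicate 1 at 50 lux (adjusted p = 0.0568), without replicate 2 at 2500 lux (0.0740) and without replicate 3 at 2500 lux (0.0585).

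Ndufa10 (chr1:92439486-92473825), an accessory subunit of complex I related to nucleoside kinases, had log2 intensities in Nxnl1-/- retinas of 10.91, 10.72 and 10.75 at 50 lux, 10.48, 10.35 and 10.45 at 2500 lux, and 10.50 and 10.53 at 5000 lux. In wild-type retinas it had 10.71 and 10.68 at 50 lux, 10.67, 10.43 and 10.59 at 2500 lux, and 10.44, 10.38 and 10.38 at 5000 lux. The doses did not overlap with 50 lux in either genotype, and the nearest approach was wild-type replicate 1 at 2500 lux. The change was -0.37 (SE 0.09, adjusted p = 0.0130 by limma) in Nxnl1-/- retinas at 2500 lux, a 1.29-fold fall, and -0.28 (SE 0.10, adjusted p = 0.0952) at 5000 lux. The wild-type change was -0.13 (SE 0.10, adjusted p = 0.479) at 2500 lux and -0.30 (SE 0.10, adjusted p = 0.0908) at 5000 lux. The call was lost without Nxnl1-/- replicate 2 at 2500 lux (adjusted p = 0.0596), which left 2 chain genes called in that comparison. Fitting only the arrays of the compared groups also left 1 chain gene called there, Cox7a2l.

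**Figure D3:**
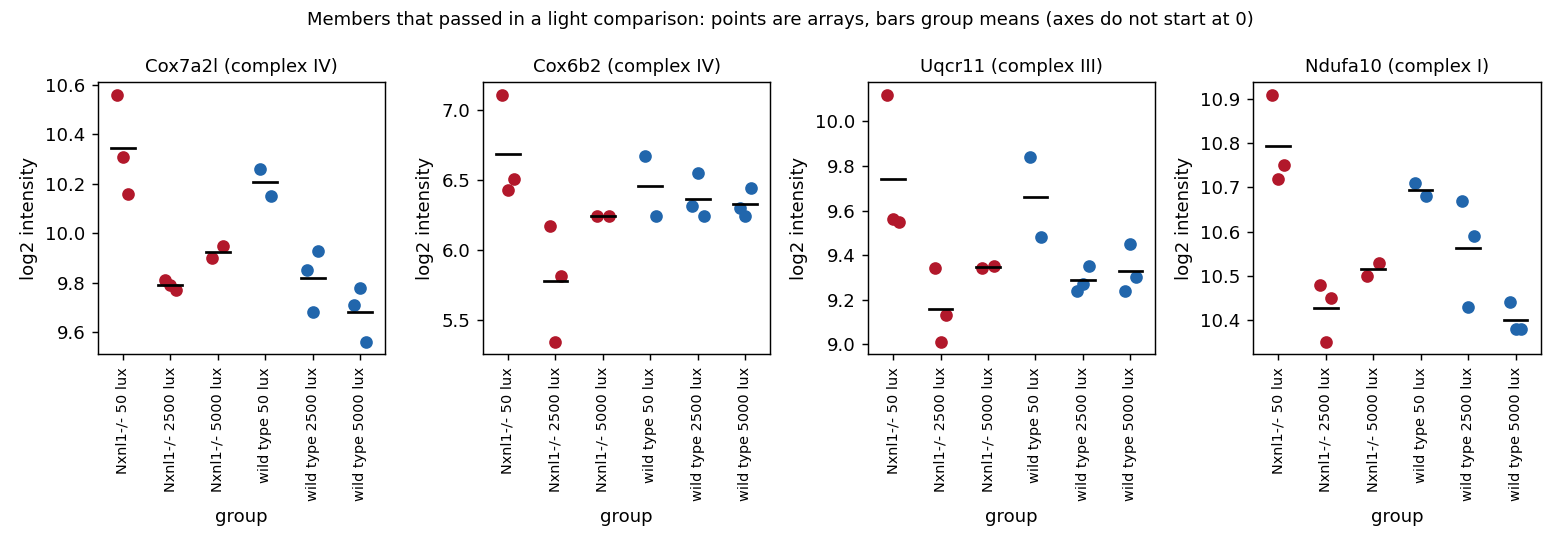
Log2 intensity on each array (points) with group means (bars) for the 4 chain genes that passed in a light comparison, Nxnl1-/- groups in red left of wild-type groups in blue. Cox7a2l lies lower at 2500 and 5000 lux than at 50 lux in both genotypes, while Cox6b2 lies lowest in Nxnl1-/- retinas at 2500 lux, at 5.34 to 6.17.

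Several other chain genes came near the threshold without passing. Ndufb3 and Ndufb8, accessory subunits in the membrane arm of complex I, had changes of -0.31 (adjusted p = 0.0692) and -0.29 (0.0885) in Nxnl1-/- retinas at 2500 lux. In Nxnl1-/- retinas at 5000 lux Ndufb3 had -0.25 (0.186) and Ndufb8 -0.23 (0.238). In wild-type retinas Ndufb3 had 0.06 (0.818) at 2500 lux and -0.31 (0.136) at 5000 lux, and Ndufb8 had -0.25 (0.230) and -0.36 (0.0915). Ndufb8 ran from 11.02 to 11.24 on the wild-type arrays at 5000 lux, against 11.37 and 11.58 at 50 lux.

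In wild-type retinas at 2500 lux the smallest p belonged to Uqcrh, the hinge protein of complex III near the cytochrome c site. Uqcrh had log2 intensities of 11.62, 11.24 and 11.41 there, against 11.97 and 11.78 at 50 lux, without overlap. Its change of -0.45 (SE 0.14) did not pass (adjusted p = 0.0509 by limma). Positive changes in that comparison were those of Ndufa3 (0.44, adjusted p = 0.0857), Cox6b1 (0.33, 0.122) and Ndufv3 (0.28, 0.151), none of which passed.

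The dimmest chain genes carried the widest differences. Cox8b, a complex IV isoform known from heart and muscle, had log2 intensities of 4.36, 4.14 and 3.96 in wild-type retinas at 5000 lux, against 6.0 and 4.48 at 50 lux. Its change was -1.09 (95% interval -1.84 to -0.34, adjusted p = 0.0663 by limma). The highest value, on wild-type replicate 1, lay 1 log2 unit or more above every other array. Over the general isoform Cox8a the changes were -0.08 (95% interval -0.47 to 0.31) in wild-type retinas at 5000 lux and -0.38 (adjusted p = 0.121) in Nxnl1-/- retinas at 2500 lux. The muscle list, to which Cox8b belongs, had 3 measurable genes of 13 on the array, with array means between 4.23 and 5.14.

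Cox7c, a small complex IV subunit, had 6.44 and 6.82 in Nxnl1-/- retinas at 5000 lux, against 5.31, 6.34 and 6.03 at 50 lux. Its change of 0.74 (SE 0.25) did not pass (adjusted p = 0.0734 by limma). A second probe set of Cox7c, not counted here, rose by 1.39 (SE 0.33, adjusted p = 0.0188) in the same comparison. The arrays at 5000 lux lay above those at 50 lux, and the lowest of all 16 values was Nxnl1-/- replicate 1 at 50 lux. Cox6a1, Cox7a2 and Ndufa4 had changes of -0.14, 0.01 and -0.30 in Nxnl1-/- retinas at 2500 lux and of 0.12, -0.01 and -0.25 in wild-type retinas at 2500 lux, all without passing.

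Doubling the dose added little that could be detected. Between 5000 and 2500 lux, 0 of 55 chain genes passed in Nxnl1-/- retinas, where 0.119% of all genes did, and 0 in wild-type retinas, where 0% of all genes did (limma). At an unadjusted p under 0.05 there were 3 and 6 chain genes (5.5% and 10.9%), against 13.7% and 7.9% of all genes. Of the Nxnl1-/- changes the smallest p belonged to Ndufa2 (0.31), Uqcrh (0.33), Cox6c (0.27), Cox7c (0.51) and Cox6b2 (0.47), with adjusted p between 0.321 and 0.437. Of the wild-type changes they belonged to Ndufb3 (-0.38), Uqcrb (-0.25), Ndufa5 (-0.30), Ndufc1 (-0.27) and Ndufc2 (-0.27), with adjusted p between 0.573 and 0.602. The 55 genes had a median of 0.06 in Nxnl1-/- retinas and -0.08 in wild-type retinas.

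Between genotypes at the same dose, 0 of 55 chain genes passed at 50 lux, where 0.403% of all genes did, 0 at 2500 lux (0.137%) and 0 at 5000 lux (0.00916%). At an unadjusted p under 0.05 there were 1, 3 and 0 chain genes by limma (1.8%, 5.5% and 0.0%), against 14.5%, 6.9% and 1.7% of all genes. The median difference, Nxnl1-/- minus wild type, was 0.08 at 50 lux, -0.06 at 2500 lux and 0.07 at 5000 lux, against 0.12, -0.02 and 0.00 over all genes. Without Nxnl1-/- replicate 1 at 50 lux the first of these was -0.01. The 95% interval of the difference lay within 1.5-fold for 49, 52 and 52 of the 55 genes (89.1%, 94.5% and 94.5%), against 57.9%, 77.1% and 72.9% of all genes.

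At 50 lux the genes with the smallest p were Cox7c (-0.56, adjusted p = 0.332), Cox8b (-0.72, 0.356), Ndufv3 (0.19, 0.454), Ndufs7 (0.19, 0.474) and Cox5a (0.21, 0.490). Leaving out wild-type replicate 1 at 50 lux turned the difference of Cox8b to 0.04. At 2500 lux they were Cox6b2 (-0.59, 0.705), Cox8b (-0.72, 0.836), Ndufb3 (-0.25, 0.840), Uqcrb (-0.22, 0.901) and Ndufb11 (-0.16, 0.981). At 5000 lux they were Cox7a2l (0.24), Ndufa1 (0.21), Ndufs7 (0.19), Ndufa3 (0.23) and Ndufb3 (0.18), each with an adjusted p of 1.00.

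The interaction of genotype with light, the Nxnl1-/- change minus the wild-type change, passed for 0 of 55 chain genes at 2500 lux, where 0.0641% of all genes passed, and for 0 at 5000 lux (0.0366%). At an unadjusted p under 0.05 there were 4 and 0 by limma (7.3% and 0.0%), against 9.5% and 8.5% of all genes. At 2500 lux the smallest p belonged to Cox6b2 (-0.82), Ndufb3 (-0.37), Ndufv3 (-0.34), Ndufs7 (-0.36) and Uqcrb (-0.32), with adjusted p between 0.485 and 0.563. At 5000 lux it belonged to Uqcrh (0.33), Cox7c (0.56), Ndufb6 (0.23), Cox7a2 (0.19) and Cox8b (0.63), with adjusted p between 0.655 and 0.706. The median interaction of the 55 genes was -0.11 at 2500 lux and 0.02 at 5000 lux, against -0.13 and -0.12 over all genes.

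Rod genes, which check the tissue, fell after bright light. Of 11 rod genes measured, 10 fell in Nxnl1-/- retinas at 2500 lux (median -0.75) and 5 at 5000 lux (median -0.39). In wild-type retinas 7 fell at each dose (medians -0.53 and -0.55). Of all genes, 13.5% and 7.81% fell in Nxnl1-/- retinas at 2500 and 5000 lux, and 5.13% and 5.27% in wild-type retinas. Cngb1, the beta subunit of the rod channel, fell by 1.38 and Pde6g, an inhibitory phosphodiesterase subunit, fell by 0.75 on the log2 scale in Nxnl1-/- retinas at 2500 lux (adjusted p = 8.5e-06 and 9.9e-05 by limma). The mean over the 11 rod genes lay between 12.18 and 12.35 on the Nxnl1-/- arrays at 2500 lux, against 12.89 and 13.00 as the lowest and highest at 50 lux. In whole retina, fewer cells of a type and less RNA per cell cannot be told apart.

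Markers of other cells also moved with light. Microglia and macrophage genes averaged 6.36 to 6.72 on Nxnl1-/- arrays at 2500 lux, against 4.98 to 5.46 at 50 lux, with 3 of 8 rising and 1 falling. They averaged 6.24 to 6.66 in wild-type retinas at 2500 lux, against 4.64 to 4.67 at 50 lux, and 6 of 8 rose. At 5000 lux 3 rose in Nxnl1-/- retinas and 4 in wild-type retinas. The list medians were 0.32 and 0.19 in Nxnl1-/- retinas at 2500 and 5000 lux, and 1.59 and 1.12 in wild-type retinas. Single genes ran from -1.11 to 5.11 in Nxnl1-/- retinas at 2500 lux. Of all genes, 8.87% and 4.60% rose in Nxnl1-/- retinas at 2500 and 5000 lux, and 8.93% and 7.56% in wild-type retinas. Pigment epithelium genes averaged 7.05 to 7.49 in wild-type retinas at 5000 lux, against 8.38 to 8.87 at 50 lux, and 7 of 9 fell. In the other light comparisons 2 of the 9 fell and 1 rose in Nxnl1-/- retinas at 2500 lux, 0 passed at 5000 lux (list median -0.73), and wild-type retinas at 2500 lux had 2 lower. In Nxnl1-/- retinas at 2500 lux 5 of 9 cone genes fell and 1 rose, and 4 of 10 Muller glia genes fell and 2 rose. At 5000 lux 5 of 8 amacrine and 4 of 10 ganglion cell genes fell there and 0 rose. In wild-type retinas at 5000 lux 0 amacrine genes passed, and 1 ganglion cell gene fell and 1 rose. Of all genes, 13.5% and 7.81% fell in Nxnl1-/- retinas at 2500 and 5000 lux. How much pigment epithelium remained on each retina was not tested. The part of all these cells in the levels of chain genes was not tested.

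Other mitochondrial genes were read from lists of functions, and the counts of every list can be set against the shares of all genes. In Nxnl1-/- retinas 13.5% of all genes fell and 8.87% rose at 2500 lux, and 7.81% fell and 4.60% rose at 5000 lux. In wild-type retinas 5.13% fell and 8.93% rose at 2500 lux, and 5.27% fell and 7.56% rose at 5000 lux. The regulators of mitochondrial gene expression included changes of over 1 log2 unit. Of 19 regulators, 5 fell and 1 rose in Nxnl1-/- retinas at 2500 lux, 2 fell at 5000 lux, while in wild-type retinas 2 rose with 2 falling at 2500 lux and 2 rose with 4 falling at 5000 lux. Ppargc1b, which encodes the coactivator PGC-1 beta, fell by 1.37 and 0.84 in Nxnl1-/- retinas at 2500 and 5000 lux and by 1.13 and 1.27 in wild-type retinas (log2; adjusted p between 0.00081 and 0.0482 by limma). Ppargc1a, for PGC-1 alpha, fell by 0.66 at both doses in Nxnl1-/- retinas and by 0.57 in wild-type retinas at 5000 lux. The medians of the list were -0.14, -0.04, -0.04 and -0.09 in Nxnl1-/- retinas at 2500 and 5000 lux and wild-type retinas at 2500 and 5000 lux.

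Esrrb, an estrogen-related receptor expressed in rods, fell by 1.26 and 1.12 in wild-type retinas at 2500 and 5000 lux and by 0.55 in Nxnl1-/- retinas at 2500 lux. Tfb2m, a mitochondrial transcription factor, rose by 0.41 in Nxnl1-/- retinas at 2500 lux and by 0.51 and 0.42 in wild-type retinas at 2500 and 5000 lux. Yy1 rose in wild-type retinas, by 0.42 and 0.47. Epas1, a hypoxia-inducible factor, fell by 0.56 in Nxnl1-/- retinas at 2500 lux and by 0.51 in wild-type retinas at 5000 lux, and Sirt3, the mitochondrial deacetylase, fell by 0.43 in Nxnl1-/- retinas at 2500 lux.

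ATP synthase, which uses the proton gradient, was read by 18 genes. Of these, 2 fell in Nxnl1-/- retinas at 2500 lux and 0 passed at 5000 lux, and wild-type retinas had 2 and 1 lower at these doses, with list medians of -0.10, -0.06, -0.01 and -0.09. The shares of all genes that fell in these comparisons were 13.5%, 7.81%, 5.13% and 5.27%. Those that fell were small membrane subunits, Atp5md (-0.63 in Nxnl1-/- and -0.62 in wild-type retinas at 2500 lux) and Atp5k (-0.39 and -0.38). Of 42 assembly factors, 1 rose and 2 fell in Nxnl1-/- retinas at 2500 lux, and 1 rose at 5000 lux. The wild-type counts were 1 higher and 1 lower at 2500 lux, and 1 higher and 2 lower at 5000 lux. Ndufaf6, for complex I, rose by 0.61 in Nxnl1-/- retinas at 2500 lux and by 0.93 and 1.22 in wild-type retinas at 2500 and 5000 lux. Cox10, which farnesylates heme for complex IV, fell by 0.54 in Nxnl1-/- retinas at 2500 lux and by 0.93 in wild-type retinas at 5000 lux.

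Lrpprc, which stabilises mitochondrial mRNA, fell by 0.34 and 0.41 in wild-type retinas at 2500 and 5000 lux. Sdhaf1, an assembly factor of complex II, fell by 0.54 in Nxnl1-/- retinas at 2500 lux, and Uqcc3, of complex III, rose by 0.34 in Nxnl1-/- retinas at 5000 lux. The assembly list had medians of -0.09, -0.05, 0.11 and 0.05 in Nxnl1-/- retinas at 2500 and 5000 lux and wild-type retinas at 2500 and 5000 lux. ND5, the mitochondrially encoded complex I subunit with a probe set, had changes of 0.04, -0.12, -0.21 and -0.43 in the same order, none of which passed (adjusted p between 0.217 and 0.893 by limma).

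Among 17 membrane proteins, Timm44, which tethers the import motor to the inner membrane, fell in all 4 light comparisons. It fell by 1.21 and 0.71 in Nxnl1-/- retinas at 2500 and 5000 lux and by 0.97 and 1.03 in wild-type retinas (log2; adjusted p between 9.7e-06 and 0.00437 by limma). Immt and Chchd3, of the cristae-organising MICOS complex, fell by 0.38 and 0.46 in Nxnl1-/- retinas at 2500 lux. No other gene of the list passed, and its medians were 0.02, -0.15, 0.09 and 0.03.

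Of 16 citric acid cycle genes, Idh2 and Suclg2 rose in all 4 light comparisons and no other gene passed. Idh2, the NADP-dependent mitochondrial isocitrate dehydrogenase, rose by 0.92 and 0.63 in Nxnl1-/- retinas at 2500 and 5000 lux and by 0.73 and 0.92 in wild-type retinas. Suclg2, of the GTP-forming succinyl-CoA ligase, rose by 1.19 and 0.63 in Nxnl1-/- retinas and by 0.82 and 0.82 in wild-type retinas. The list medians were -0.01, -0.03, 0.18 and 0.07.

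Of 10 other nuclear electron transfer genes, 1 rose and 2 fell in Nxnl1-/- retinas at 2500 lux, 1 rose at 5000 lux, and 2 rose at each dose in wild-type retinas. Gpd2, the mitochondrial glycerol phosphate dehydrogenase, rose by 0.75 in wild-type retinas at 2500 lux, and Etfa, an electron transfer flavoprotein subunit, rose by 0.55 and 0.45 at 2500 and 5000 lux. Dhodh and Prodh, which pass electrons to ubiquinone from pyrimidine synthesis and proline, fell by 0.52 and 0.51 in Nxnl1-/- retinas at 2500 lux. Aox1, an aldehyde oxidase that stands in the list but is no part of the chain, rose by 1.06 and 0.64 in Nxnl1-/- retinas and by 0.65 in wild-type retinas at 5000 lux. No gene of any of these lists passed between the genotypes or in the interaction.

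**Figure D4:**
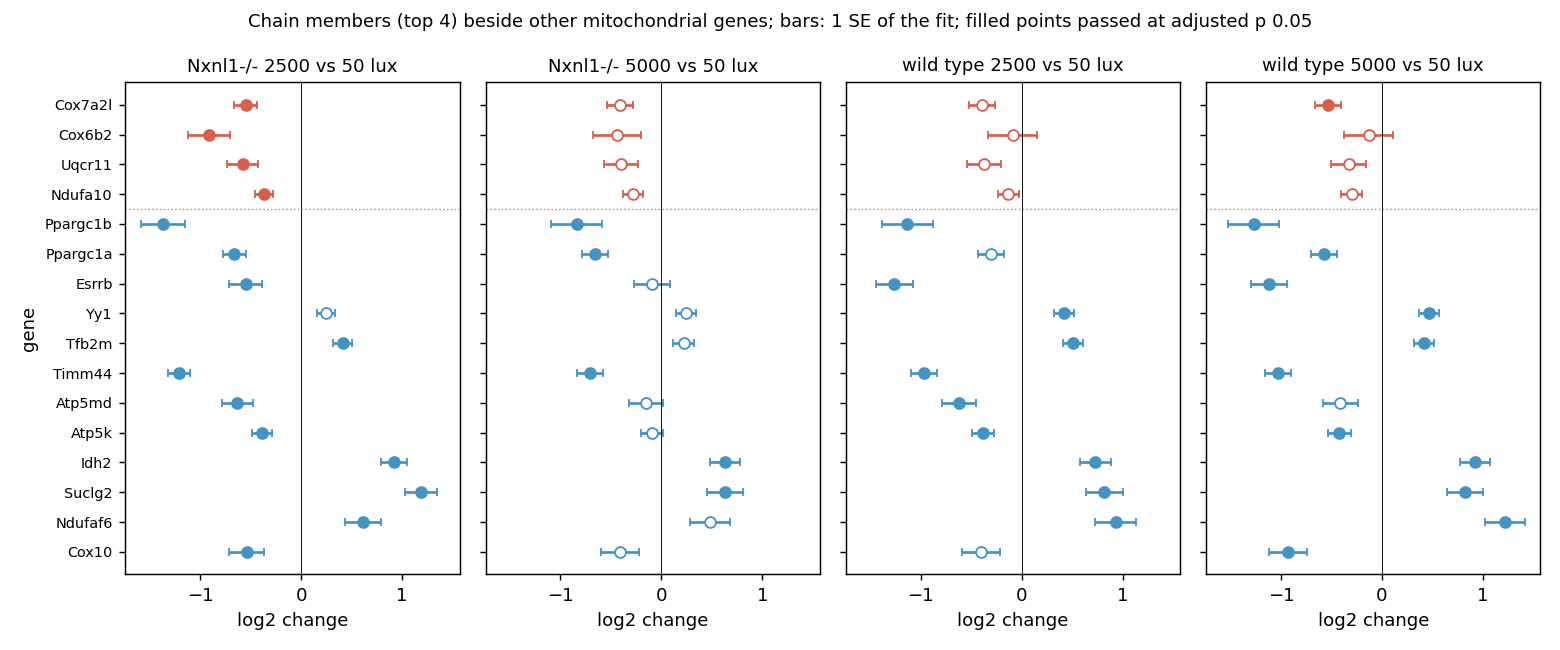
Log2 change (points) with 1 SE of the fit (bars) in each light comparison for the 4 chain genes that passed at least once (above the dotted line) and for 12 other mitochondrial genes or their regulators (below it); filled points passed at an adjusted p under 0.05. Ppargc1b and Timm44 lie left of 0 and Idh2 and Suclg2 right of 0 in all 4 panels.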

How the data were processed

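The data cover retinal RNA on 16 Affymetrix arrays in 6 groups of genotype and light dose, set by the labels. The authors deposited linear intensity values for each probe set, made with GCRMA per the submitters' processing notes, with no version given in the sources used here. Log2 was taken of each value. Median intensity per array was 14.4 to 15.8, and the lowest deposited value was 4.62. Of 45037 probe sets, the 23320 above log2 4 on at least 2 arrays were tested, and 34945 carried 1 gene symbol in the platform annotation. The brightest of these by mean over 16 arrays stood for each gene.

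A mean per group was fitted in limma 3.58.1 (R 4.3.3) with empirical Bayes moderation, and 11 contrasts were read with Benjamini-Hochberg adjustment over all tested probe sets at 0.05. The fit was tested on simulated data. Named genes were the chain genes passing in a contrast, otherwise the 5 with the smallest p, the brightest and dimmest of each complex, isoform pairs, and up to 3 genes per list. The members, lists and rules were chosen with earlier results of these data known. The number of arrays limits the precision. Alternatives tried were other filters, array centring, quantile normalization, an intensity trend, array weights, all probe sets of a gene, a replicate block, only the compared arrays, and leaving out each array. Protein sequences were not used here.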

Additional observations from a re-analysis of the deposited data

Results flagged for a closer look

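Probe sets other than the one used per gene entered no count of chain genes. Of 60 such probe sets tested, 6 passed in at least 1 light comparison. In single light comparisons 12.4% to 22.4% of all genes passed, and the share passing in at least 1 of them is not given here. Each value below is a log2 change against 50 lux that passed in limma, unless said otherwise.

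For Cox7a2l, further probe sets gave -0.63 and -0.48 in Nxnl1-/- retinas at 2500 lux and -0.54 in wild-type retinas at 2500 lux, the direction of the main probe set. For Ndufa10, a dim second probe set (mean log2 3.57) gave -0.50 and -0.65 in Nxnl1-/- retinas at 2500 and 5000 lux.

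For Ndufa12, a complex I accessory subunit, a second probe set (mean log2 8.15) gave -1.38 in Nxnl1-/- retinas at 2500 lux and -1.75 and -1.32 in wild-type retinas at 2500 and 5000 lux. The other second probe sets of Ndufa12 gave -0.16 and -0.15 in Nxnl1-/- retinas at 2500 lux and did not pass. Probe sets of Ndufa12 therefore disagree in size, and which transcript each one reads was not tested.

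For Ndufs4, a second probe set gave -0.83 in Nxnl1-/- retinas at 2500 lux, where the others gave -0.42 and -0.09 without passing. For Cox7c, a second probe set gave 1.39 in Nxnl1-/- retinas at 5000 lux.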

How the results depend on the processing

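Interactions, dose steps and genotype differences called 0 chain genes under every alternative run. The count in Nxnl1-/- retinas at 2500 lux (4) was 10 with array weights, 1 with only the compared arrays and 2 to 5 leaving out single arrays. In Nxnl1-/- retinas at 5000 lux (0) it was 1 without the filter, with the stricter filter, with array medians subtracted and with an intensity trend, 2 with all probe sets, and 0 to 1 leaving out arrays. In wild-type retinas at 2500 lux (0) it was 1 with the stricter filter, 2 with array medians subtracted, an intensity trend, array weights or all probe sets, and 0 to 1 leaving out arrays. In wild-type retinas at 5000 lux (1) it was 2 without the filter, with an intensity trend or with all probe sets, 3 with array medians subtracted, 6 with array weights, 0 with only the compared arrays and 0 to 1 leaving out arrays. Without wild-type replicate 2 at 50 lux the gene called there was Cox8b (-1.85) in place of Cox7a2l. Leaving out single arrays, the median of the chain genes ran from -0.19 to -0.04 in Nxnl1-/- retinas at 2500 lux, from -0.01 to 0.13 between genotypes at 50 lux, and from -0.18 to -0.02 and from -0.05 to 0.12 for the interaction at 2500 and 5000 lux. The values at -0.04, -0.01, -0.02 and 0.12 are those without Nxnl1-/- replicate 1 at 50 lux, and array weights gave 0.10 for the last. Leaving out single arrays, Cox8b ran from -1.48 to 0.04 between genotypes at 50 lux and from -0.13 to 1.39 for the interaction at 5000 lux, with the sign turned (0.04 and -0.13) without wild-type replicate 1 at 50 lux. The causes were not tested. The share of all genes called under each alternative is not given here, so the counts of chain genes cannot be set against it. Where 1 array remained in a group, it was taken to vary like the other groups.

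Replicate numbers do not pair the arrays by the labels, and same-numbered arrays of different groups correlated in their deviations at -0.24 to 0.69 (median 0.17, 36 pairs), against a median of -0.11 for other numbers. By the data, 13 of 16 arrays correlated best with an array of their own number. With the replicate block, 2 chain genes were called in wild-type retinas at 2500 lux, both higher, and 1 in Nxnl1-/- retinas at 5000 lux.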
